A study of Mus musculus with 16 samples.

Results

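The comparison described here is that of Taf4a knockout with wild-type embryoid bodies at EB5, one day after retinoic acid (RA) was added. It was chosen by the sample labels and holds 4 of the 16 poly-A RNA-seq libraries of the series, 2 labelled WT (Taf4+/+) and 2 labelled KO (Taf4-/-). All lines were mouse embryonic stem cells (ESCs) derived from blastocysts of crosses of Taf4a+/- mice on C57Bl6J, and the null allele, carried in the germline, lacks a pair of internal exons. The 2 libraries of a genotype came from 2 independent ESC lines, grown on inactivated mouse embryonic fibroblast feeders and then aggregated into embryoid bodies. WT and KO lines received the same neuronal differentiation with RA, and the other stages of the series are undifferentiated ESCs, EB4 (before RA) and EB8 (later in the treatment).

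Taf4a encodes Taf4, one of the TBP-associated factors. With the TATA-binding protein (TBP) they form TFIID, which positions RNA polymerase II at promoters. Taf4b is its paralogue. Retinoic acid binds the RAR and RXR nuclear receptors, and in embryoid bodies it shuts down the pluripotency programme, switches on Hox genes in the order of their position in the clusters and directs cells to a neural progenitor fate of hindbrain and spinal cord type.

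The values are normalised counts, that is, reads in a gene divided by the size factor of the library. The 4 EB5 libraries held between 24409504 and 27685306 reads in genes, within the 22442118 to 40711826 of all 16 libraries. The 2 libraries of each group differed from one another by far more than counting noise (chi-square per gene 60.8 in WT and 50.6 in KO, where about 1 is sampling noise). Taf4a did not check the labels, because a count per gene does not resolve the deleted exons: it had 1778 and 1756 in WT versus 2284 and 2002 in KO (log2 change 0.28 ± 0.15 (SE), limma adjusted p 0.336). Taf4b had 612 and 847 in WT versus 919 and 777 in KO (log2 change 0.23 ± 0.22 (SE), limma adjusted p 0.59). Single EB5 libraries stood apart over whole chromosomes. The median log2 level relative to the mean of all 16 libraries was 0.40 for chromosome 8 in WT replicate 1, 0.17 for chromosome 11 in KO replicate 1 and 0.40 for chromosome X in KO replicate 2, against -0.18 to 0.01 for these chromosomes in the other EB5 libraries. The 6 genes tested on chromosome Y had a median log2 change of -4.18 at EB5, KO minus WT, and 0 of them were called. The part of these differences in the results was not tested beyond a fit without chromosomes X, Y, 8 and 11. That fit called 679 genes, of which 592 were among the 700 called with all chromosomes. With all chromosomes, 48 genes were called higher and 8 lower in KO of 1338 tested on chromosome 11. On chromosome 8 these counts were 9 and 31 of 853, and on chromosome X 10 and 2 of 613. The shifts of chromosomes 8, 11 and X recurred in the same replicate number at EB4 and EB8. They were at 0.43 and 0.40 for chromosome 8, 0.19 and 0.27 for chromosome 11 and 0.55 and 0.38 for chromosome X. Genes described below lie on chromosome 8 (Tubb3, Col4a1, Nanos3, Galntl6, Zfp42, Irx3, Cdh1, Fgfr1 and Nqo1), on chromosome 11 (Hoxb1, Hoxb8, Hoxb9, Etv4, Tex14, Rara, Meis1, Axin2 and Col1a1) and on chromosome X (Nr0b1, Sox3, Dcx and Pou3f4).

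The genotypes differed at EB5 in 700 of 16124 genes tested (4.34%, limma on log2(normalised count + 1), Benjamini-Hochberg adjusted p below 0.05). Of these, 350 were upregulated (2.17%) and 350 downregulated (2.17%) in KO. The upregulated genes had a median log2 change of 1.89 (0.55 to 5.02), and 157 of them changed by at least 2 on the log2 scale. The downregulated genes had a median of -1.51 (-8.99 to -0.61), and 108 changed by at least 2. The WT and KO values overlapped in none of the 700 genes. In the whole table, 26.7% of the genes tested had both KO values above both WT values and 28.1% had both below, so this arrangement alone is common. In bulk RNA, fewer cells of a type and less RNA per cell cannot be told apart, which holds for every gene below.

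The number of calls rested on the libraries, and on KO replicate 2 most of all. It was 525 without KO replicate 1, 234 without WT replicate 1 and 39 without WT replicate 2. Without KO replicate 2 it was 0 (limma, with 1561 genes at an unadjusted p below 0.05), so each call named below is lost without that library. A fit of the 4 EB5 libraries and no other stage called 72 genes, whereas DESeq2 called 1719 and edgeR 603. Of the largest changes and list members called by limma and named below, 8 were not called by edgeR. They were Tmprss11f, H2-M6-ps, Lin28b, Dnmt3a, Sall2, Hoxd3, Spon1 and Tfap2c. The per-library values are therefore given with most genes, since they show what each line contributes.

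**Figure D1:**
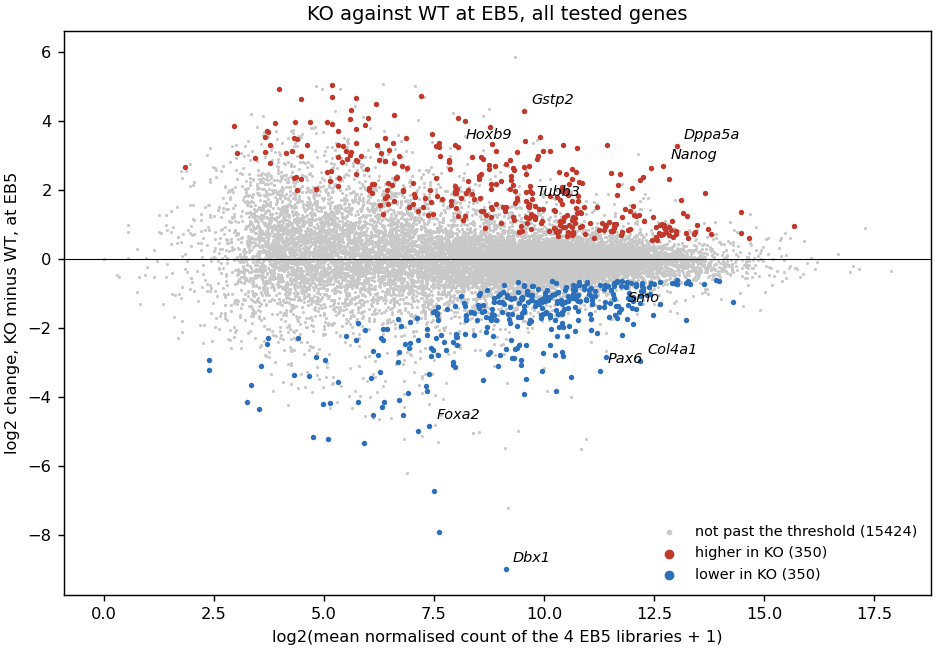
Change between KO and WT at EB5 (vertical axis, log2) against the mean level in the 4 EB5 libraries (horizontal axis, log2 of the normalised count plus 1), with 1 point for each of the 16124 genes tested. The 350 upregulated genes (red) and the 350 downregulated genes (blue) are found at low and high levels, and Dbx1 at -8.99 is the most downregulated.

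The largest rises, that is, KO above WT at EB5, were mostly in genes that were low in WT at EB5, which ranking by the rise itself favours. Gc, the vitamin D binding protein, had 0 and 3.3 in WT versus 49.3 and 89.2 in KO, at least 22.6-fold higher in KO when the WT group is set to the floor of 3 reads per library (limma adjusted p 0.0128). Reg2, a regenerating islet-derived lectin, was at 0 and 0 in WT and 23.7 and 35.9 in KO, a rise of at least 9.74-fold (0.0135). Both genes were at or near that floor in WT at EB5 and well above it in both KO lines. Both were expressed in undifferentiated ESCs of both genotypes. There Gc had 100.1 and 156.3 in WT versus 67.2 and 102.2 in KO, and Reg2 had 30.9 and 32.7 in WT versus 24.9 and 32.2 in KO.

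Among the other large rises, Gstp2 (a glutathione S-transferase that is similar to its paralogue Gstp1, so that reads could be shared) had 53.6 and 90.0 in WT versus 1011 and 1825 in KO (log2 change 4.27 ± 0.72 (SE), limma adjusted p 0.0128). Cyct, the testis form of cytochrome c, had 18.8 and 42.8 in WT versus 522 and 471 in KO (log2 change 4.08 ± 0.75 (SE), limma adjusted p 0.0152). Ccno, a cyclin family member needed for the formation of multiple cilia, had 8.5 and 9.9 in WT versus 161 and 206 in KO (log2 change 4.17 ± 0.85 (SE), limma adjusted p 0.0228). In each the lower KO value at EB5 was more than 10 times the higher WT value. In undifferentiated WT ESCs, Gstp2 had 81.9 and 386.7, Cyct 105.6 and 635.4 and Ccno 248.5 and 428.9. Cyp2b23, a cytochrome P450 with close paralogues, reached 73.0 and 128 in KO against 3.8 and 2.2 in WT. The remaining genes of the 12 with the largest rise were Tmem40 (2.8 and 27.5 in WT versus 231 and 327 in KO, log2 change 4.73), Tmprss11f (4.68), Dppa5b (4.61), the pseudogene H2-M6-ps (4.30), Smtnl1 (4.09) and Mir294 (4.47). Fitted values of genes near 0 depend on the pseudocount of 1 and are no bounds.

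Mir294 belongs to the miR-290 cluster, the main microRNA cluster of mouse ESCs, which promotes their cell cycle. The cluster spans chr7:3218627-3220842 (NCBI37, plus strand). Its other members were looked at after the value of Mir294 was seen. Of its 7 annotated hairpins, all passed the filter on low counts and 6 were upregulated in KO, with log2 changes over the 7 from 2.30 to 4.47. Among the 23 microRNA genes tested these were the 6 that rose, and 0 fell. Poly-A libraries do not capture mature microRNAs, so these are reads of the longer transcript over the hairpins, and the 7 values are not independent. The mature 3p forms, as RefSeq gives them (table of build GRCm38.p6), are shown because 5 of the 6 found there share bases 2 to 7, AAGUGC. Capitals mark the seed, bases 2 to 8. The 3p form of Mir292 is not shown.
mmu-miR-290a-3p: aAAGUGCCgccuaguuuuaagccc
mmu-miR-291a-3p: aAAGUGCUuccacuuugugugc
mmu-miR-291b-3p: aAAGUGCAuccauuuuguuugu
mmu-miR-293-3p: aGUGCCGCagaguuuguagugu
mmu-miR-294-3p: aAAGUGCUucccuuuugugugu
mmu-miR-295-3p: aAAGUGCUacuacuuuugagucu

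The seeds of miR-291a-3p, miR-294-3p and miR-295-3p are identical. Over their hairpins, Mir291a had 5.6 and 1.1 in WT versus 34.1 and 26.2 in KO (limma adjusted p 0.0417), Mir294 had 2.8 and 8.8 in WT versus 114 and 160 in KO (0.0133) and Mir295 had 13.2 and 12.1 in WT versus 119.5 and 146 in KO (0.0128). Mir293, whose seed differs, had 13.2 and 1.1 in WT versus 57.8 and 84.4 in KO (0.0283). Mir290, the hairpin nearest the start of the cluster, had 3.8 and 2.2 in WT versus 22.8 and 14.5 in KO and did not pass (0.0767). In each of these 5 hairpins both KO libraries lay above both WT libraries.

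The largest falls were mostly in genes that had risen in WT between EB4 and EB5: of those named here, Foxa2 and Enpep did not pass in that comparison of the stages (limma, adjusted p below 0.05). Ranking by the fall favours genes that are high in WT at EB5, and both comparisons use the same WT EB5 libraries. The rise in WT is therefore no separate result. Dbx1, a homeodomain factor of interneuron progenitors in the ventral hindbrain and spinal cord, had 612 and 1631 in WT at EB5 and 2.8 and 0 in KO. It was thus at least 390-fold lower in KO with the KO group at the floor of 3 reads per library (log2 change -8.99 ± 0.87 (SE), limma adjusted p 0.00335). At EB4 it was at 0 and 2.1 in WT versus 0 and 0 in KO, and at EB8 at 4360.1 and 3448 in WT versus 0 and 2.1 in KO. Dbx1 therefore had no more than 2.8 normalised counts in any KO library of embryoid bodies.

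Foxa2, a forkhead factor of floor plate and endoderm, had 293 and 352 in WT versus 15.2 and 6.8 in KO (log2 change -4.84 ± 0.72 (SE), limma adjusted p 0.009). Foxb1, a forkhead factor of the early neural tube, had 163 and 254 in WT versus 19 and 2.9 in KO (log2 change -4.53 ± 0.92 (SE), limma adjusted p 0.023). Itga2, the integrin alpha 2 chain of a collagen receptor, had 257 and 284 in WT versus 5.7 and 9.7 in KO (log2 change -5.0 ± 0.85 (SE), limma adjusted p 0.0128). In these 3 genes both KO lines were more than 8 times lower than the lower WT line. Klb, the co-receptor beta-klotho for endocrine FGFs, had 135 and 169 in WT versus 7.6 and 5.8 in KO (-4.31), and Enpep, an aminopeptidase, had 64.9 and 37.3 in WT versus 0 and 1.0 in KO (a fall of at least 17.8-fold). Sst, the neuropeptide somatostatin, had 10.4 and 123 in WT versus 0 and 0 in KO (a fall of at least 23.2-fold), and here the WT lines themselves differed widely. Vit, an extracellular matrix protein, also differed between WT lines, though less, at 39.5 and 196 against 0 and 3.9 in KO. The others among the largest falls were 1700011H14Rik (-6.72), Galntl6 (-4.52, on chromosome 8) and Lmo3, a LIM-only factor (13.2 and 28.6 in WT, 0 in both KO libraries).

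Because TFIID carries the TATA-binding protein, promoter sequences of the called genes were read from the NCBI37 genome, from 250 bases before to 50 after the annotated start. The letters TATAAA on the sense strand within 20 to 40 bases before the start were present in 5 of 350 upregulated genes (1.43%), in 2 of 350 downregulated genes (0.571%) and in 166 of the 16093 genes tested that had a window (1.03%). The promoters of upregulated genes had a median GC content of 56%, those of downregulated genes 62.8% and those of all genes tested 58.4%. The upregulated genes with TATAAA were Tfcp2l1, Dppa2, Reg2, Ckb (creatine kinase B) and Nqo1 (a quinone reductase), and the downregulated ones Dbx1 and Rnd3 (an atypical small GTPase). Ckb, Nqo1 and Rnd3 are named because the counts are small and were chosen after their values were seen. The last 60 bases before the start are shown for the most downregulated gene and for a pair of upregulated pluripotency genes, since the same letters, in capitals, stand at like distances in genes that moved in opposite directions.
Dbx1, chr7:56892220-56892279, minus strand: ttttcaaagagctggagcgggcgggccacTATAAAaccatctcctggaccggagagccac
Tfcp2l1, chr1:120524462-120524521, plus strand: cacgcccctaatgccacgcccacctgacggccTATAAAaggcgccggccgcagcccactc
Dppa2, chr16:48310530-48310589, plus strand: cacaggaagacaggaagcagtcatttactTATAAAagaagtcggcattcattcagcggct

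Pluripotency genes were higher in KO at EB5. All 26 listed factors passed the filter, and 11 were upregulated and 1 downregulated, against 4.34% of all genes called. The median log2 change of the 26 was 1.90, against -0.01 over all genes tested. Both KO values lay above both WT values in 22 of them, and in 26.7% of all genes tested. Nanog, a homeodomain factor of the naive state, had 1466 and 2148 in WT versus 9428 and 13846 in KO (log2 change 2.69 ± 0.55 (SE), limma adjusted p 0.023). Esrrb, an orphan nuclear receptor that acts beside Nanog, had 1637 and 1501 in WT versus 6788 and 9635 in KO (log2 change 2.37 ± 0.33 (SE), limma adjusted p 0.00849). Tfcp2l1, a naive-state factor downstream of LIF, had 1524 and 1474 in WT versus 7036 and 12228 in KO (log2 change 2.63 ± 0.31 (SE), limma adjusted p 0.00506). For these 3 transcription factors the lower KO line was above 4 times the level of the higher WT line.

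Nr5a2, a nuclear receptor that maintains Pou5f1, had 200.4 and 281 in WT versus 949 and 967 in KO (log2 change 2.01 ± 0.25 (SE), limma adjusted p 0.00681), and the KO lines were nearly equal. Nr0b1 (Dax1), a repressor on chromosome X, had 144 and 108 in WT versus 679.8 and 958 in KO (2.69), and Tbx3, a T-box factor of the naive network, had 350 and 549 in WT versus 2004 and 2916 in KO (2.46). The ESC-restricted genes Dppa2, with 342 and 154 in WT versus 1672 and 2354 in KO (3.11), and Dppa5a, with 1530.1 and 1451 in WT versus 10344 and 19793 in KO (3.26), rose as well. Dppa5a has close copies, Dppa5b among them, so part of its reads may be shared. Tdh, the threonine dehydrogenase on which mouse ESCs depend for one-carbon metabolism, had 3.8 and 9.9 in WT versus 80.6 and 61.1 in KO (3.31). Zfp296, a zinc finger protein of ESCs, had 113 and 97.7 in WT versus 395 and 403 in KO (1.92). In each of these genes no KO value overlapped the WT values.

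The central factors Pou5f1 and Sox2 did not pass the test. Pou5f1 had 4186 and 1936 in WT versus 5628 and 10036 in KO (limma adjusted p 0.0591) and Sox2 had 7902 and 6959.9 in WT versus 12814 and 11281 in KO (0.12). Both KO lines were above both WT lines in each. Zfp42 (Rex1) had 1293 and 325 in WT versus 1095 and 2172 in KO and overlapped between genotypes, with WT replicate 1 above KO replicate 1. Klf4 had 127 and 323 in WT versus 586 and 679.7 in KO (0.125). Lin28b, an RNA-binding repressor of let-7 maturation, was the downregulated member, at 3749 and 5615 in WT versus 2312 and 941 in KO (log2 change -1.64 ± 0.42 (SE), limma adjusted p 0.0497), and its paralogue Lin28a had 22487 and 22993 in WT versus 14450 and 7070 in KO (0.0736).

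The 5 markers of undifferentiated ESCs (Pou5f1, Nanog, Zfp42, Esrrb and Klf4) summed to 8709 and 6233 normalised counts in WT and to 23525 and 36369 in KO, and none was at 0.

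**Figure D2:**
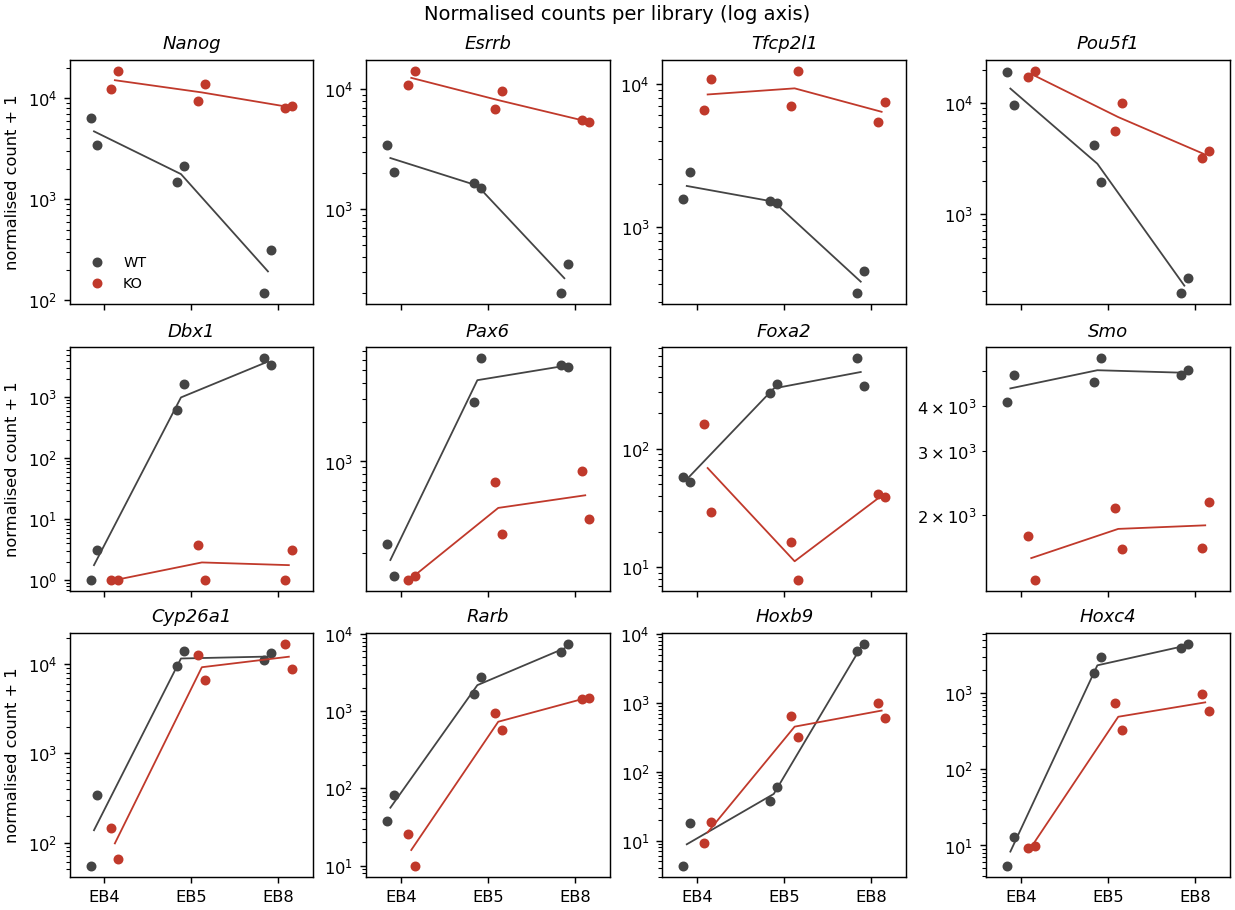
Normalised counts plus 1 (vertical axis, logarithmic) of 12 genes at EB4, EB5 and EB8, with 1 point per library (WT grey, KO red) and lines through the geometric means. At EB8 Nanog, Esrrb and Tfcp2l1 lay between 118 and 494 in WT and between 5325 and 8408 in KO, Dbx1 and Pax6 lay below WT in both KO lines at EB5 and EB8, and Cyp26a1 overlapped between genotypes at every stage.

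Of 24 germ cell genes, 23 were found in the table and tested. Of these, 5 were upregulated and 0 downregulated, against 2.17% of all genes in each direction, with a median of 1.46. Prdm14, shared with the pluripotency list and needed for primordial germ cells, had 154 and 128 in WT versus 829.6 and 1273 in KO (log2 change 2.86 ± 0.67 (SE), limma adjusted p 0.036). Tfap2c, a partner of Prdm14 in germ cell specification that also marks trophoblast, had 894 and 1586 in WT versus 5606 and 4972 in KO (log2 change 2.15 ± 0.52 (SE), limma adjusted p 0.0401). Tdrd12, a Tudor protein of the piRNA pathway, had 233 and 129.6 in WT versus 994 and 1164 in KO. KO values of these 3 genes were more than 3 times the higher WT value. Tex14 (intercellular bridges, on chromosome 11) and Nanos3 (survival of germ cells, on chromosome 8) rose by 2.11 and 2.12. Stra8, a meiotic gene that RA induces, had 4534 and 1549.5 in WT versus 4486 and 7028 in KO and did not pass. Rec8, a meiotic cohesin subunit, had 2531 and 2472 in WT versus 2554 and 2484 in KO, nearly equal in all 4 libraries. The 26 pluripotency genes and the germ cell genes overlap, and both lists hold genes active in ESCs.

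Of 24 retinoid pathway genes tested, 1 was downregulated and 0 upregulated, a share near the 4.34% of all genes, with a median of -0.31. DESeq2 called 6 lower and 0 higher, against 907 lower and 812 higher of all 16124 genes. Both KO values lay below both WT values in 12, and in 28.1% of all genes tested. Cyp26a1, the RA-degrading enzyme and a direct RA target, had 53.7 and 344 in WT versus 144 and 65.1 in KO at EB4 and 9699 and 13968 in WT versus 12873 and 6704 in KO at EB5 (log2 change -0.33 ± 0.67 (SE), limma adjusted p 0.824). Every EB5 value was more than 10 times every EB4 value, and the rise from EB4 passed in both genotypes (limma). Rarb, an RA receptor and RA target, had 37.3 and 81.5 in WT versus 24.5 and 8.9 in KO at EB4 and 1689 and 2819 in WT versus 942 and 567 in KO at EB5 (log2 change -1.58 ± 0.53 (SE), limma adjusted p 0.114). It rose in both genotypes too, to levels that were lower in both KO lines than in both WT lines, a difference that did not pass the test. Crabp2, which carries RA to the nucleus, had 28139 and 36589.7 in WT versus 22132 and 7081 in KO (0.121), and Rara, an RA receptor expressed in most cells, had 2688 and 3018 in WT versus 3932 and 4107 in KO (0.326). Dhrs3, which returns retinal to retinol, had 1674 and 1619.7 in WT versus 979 and 616 in KO (0.0951). The downregulated gene was Aldh1a1, a retinaldehyde dehydrogenase, at 13.2 and 20.9 in WT versus 0 and 0 in KO, a fall of at least 5.92-fold from a low WT level (0.0256).

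RA receptors bind direct repeats of a hexamer. The hexamers searched were AGGTCA and AGTTCA, together with both forms that begin with G, namely GGGTCA and GGTTCA. Pairs of these in any combination with 5 bases between them (DR5), searched on both strands, were found in the 300-base windows of 9 of 16093 genes tested (0.0559%) and in 0 of the 350 upregulated and 0 of the 350 downregulated genes. Repeats with a spacing of 2 (DR2) were found in 22 (0.137%), again in 0 and 0. At shares this low, sets of 350 genes would hold hardly any in either case, so the counts of 0 show no difference. The window of Cyp26a1 held a DR5 on the strand opposite to the gene, and it is shown as the promoter of a gene that RA induced in both genotypes, with the hexamers in capitals, here read on the opposite strand.
Cyp26a1, chr19:37772246-37772297, plus strand: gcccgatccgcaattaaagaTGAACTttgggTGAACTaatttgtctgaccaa

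Hox genes differed in both directions. Of 39 genes, 32 passed the filter on low counts, of which 3 were upregulated and 3 downregulated, against 2.17% of all genes in each direction. The direction followed the paralogue group, counted from the 3′ end of the clusters that RA activates first. This split was made after the values were seen and no test was run on it. Of the 15 tested genes of groups 1 to 5, 12 had a log2 change below 0, 8 had both KO values below both WT values, and the median was -1.04. Of the 17 tested genes of groups 6 to 13, all 17 had both KO values above both WT values, and the median was 2.10, with a range of 1.29 to 3.30. Over all genes tested, both KO values lay below both WT values in 28.1% and above them in 26.7%. Genes within a cluster are neighbours, may share reads where their transcripts overlap and are not independent.

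Hoxd3 had 444 and 951 in WT versus 149.8 and 20.4 in KO (log2 change -3.52 ± 0.79 (SE), limma adjusted p 0.031) and Hoxd4 had 89.4 and 299 in WT versus 22.8 and 2.9 in KO (log2 change -4.09 ± 0.89 (SE), limma adjusted p 0.0276). The annotated span of Hoxd3 contains Hoxd4, on the same strand, and Hoxd3 was not called by DESeq2 or edgeR. Hoxc4 had 1832 and 2955 in WT versus 738 and 326 in KO (log2 change -2.24 ± 0.55 (SE), limma adjusted p 0.0417). In all 3 genes the lower value was that of KO replicate 2, and KO replicate 1 also lay below both WT lines. Hoxb9, on chromosome 11, had 36.7 and 59.3 in WT versus 643 and 317 in KO (log2 change 3.25 ± 0.66 (SE), limma adjusted p 0.023), Hoxa9 had 3.8 and 3.3 in WT versus 43.6 and 43.6 in KO (log2 change 3.30 ± 0.65 (SE), limma adjusted p 0.0207) and Hoxc8 had 6.6 and 14.3 in WT versus 156 and 36.8 in KO (log2 change 2.84 ± 0.66 (SE), limma adjusted p 0.0347). These posterior genes lay between 3.3 and 59.3 normalised counts in WT and between 36.8 and 643 in KO, and for each the groups did not overlap.

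Hoxb1, an early RA target, had 3.3 and 2.1 in WT versus 1.2 and 7.7 in KO at EB4 and 2096 and 1916 in WT versus 11217 and 4129.9 in KO at EB5, and the genotypes did not pass the test (limma adjusted p 0.26). It rose from EB4 to EB5 in WT and in KO (limma adjusted p below 0.05), and at EB5 both KO values lay above both WT values. The caudal factor Cdx1, which activates posterior Hox genes, had 283 and 478 in WT versus 2092 and 1620.3 in KO (0.0555), and Cdx2 had 15.1 and 40.6 in WT versus 276 and 174 in KO (0.185).

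**Figure D3:**
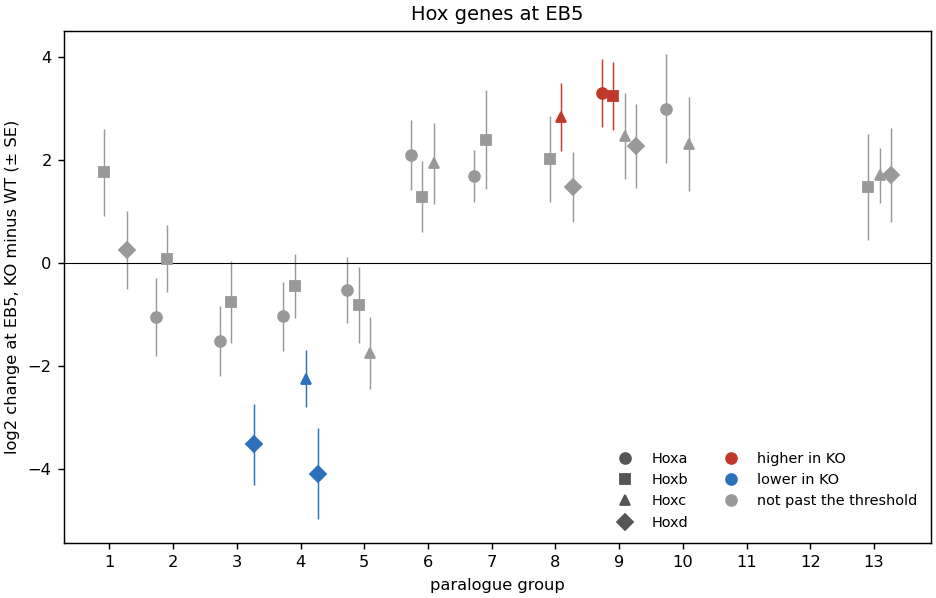
Log2 change of 31 of the 32 Hox genes tested at EB5 (vertical axis, KO minus WT, bars are standard errors) by paralogue group (horizontal axis), with a symbol for each cluster. The 17 genes of groups 6 to 13 all lie above 0, and the 3 downregulated genes are in groups 3 and 4.

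Of 11 Hox cofactors and Cdx genes tested, 3 were downregulated and 0 upregulated (median -1.15), against 2.17% of all genes in each direction. Among them, Pbx2, a homeodomain protein that binds DNA together with Hox proteins, had 5689 and 6840.3 in WT versus 3749 and 3207 in KO (log2 change -0.85 ± 0.16 (SE), limma adjusted p 0.0184). Pbx3, with the same role, had 1206 and 1324 in WT versus 626 and 438 in KO (log2 change -1.27 ± 0.27 (SE), limma adjusted p 0.0265). The ranges of the genotypes were apart for both. The Meis partners were not called, with 2082 and 3534 in WT versus 1922 and 700.1 in KO for Meis1 and 5267 and 6576 in WT versus 3772 and 1858 in KO for Meis2.

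A part of the neural progenitor genes was lower in KO. Of 44 listed transcription factors, 43 matched the table and 41 were tested, with a median of -0.71. Of these, 5 were downregulated (Dbx1, Foxb1, Pax3, Pax6 and Pou3f2) and 1 was upregulated, against 2.17% of all genes in each direction. Pax6, a paired-box factor of radial glia and ventral progenitors, had 2855 and 6135 in WT versus 696 and 278 in KO (log2 change -3.25 ± 0.57 (SE), limma adjusted p 0.0133). Pax3, its dorsal counterpart and a neural crest factor, had 280.4 and 470 in WT versus 67.3 and 48.5 in KO (log2 change -2.65 ± 0.51 (SE), limma adjusted p 0.0182). The WT lines also differed from each other in each, and both KO lines were more than 4 times lower than the lower WT line. Pou3f2 (Brn2), a POU factor of neural progenitors, had 34.8 and 174 in WT versus 5.7 and 1.9 in KO, with WT lines that were far apart (limma adjusted p 0.0347).

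The rest of that list did not pass. Sox11 had 1450.1 and 1971 in WT versus 878 and 498 in KO, Irx3 887 and 1926 in WT versus 524 and 381 in KO and Sox3 1059 and 849 in WT versus 454 and 326 in KO, with adjusted p of 0.156, 0.169 and 0.126 (limma). In all 3 both KO lines were below both WT lines. By contrast Olig2 had 5.6 and 17.6 in WT versus 107 and 195 in KO and En2 3.8 and 63.7 in WT versus 195 and 126 in KO, with both KO lines above WT and no call either (0.286 and 0.0794). The 3 matched neural progenitor markers (Pax6, Nes and Sox3) summed to 13069 and 20283 in WT and to 7309 and 3979 in KO, and none was at 0.

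The radial glia and neuroepithelial list had the lowest median of the 22 lists, at -1.63. All 13 members were tested, and 2 were downregulated, against 2.17% of all genes. Both KO values lay below both WT values in 12, and in 28.1% of all genes tested. Msi1, an RNA-binding protein of neural stem cells, had 4113 and 4641 in WT versus 1506 and 1225 in KO (log2 change -1.69 ± 0.29 (SE), limma adjusted p 0.0128), and Prom1 (CD133), a membrane protein of apical protrusions, had 2843 and 3389.9 in WT versus 1502 and 706 in KO (log2 change -1.59 ± 0.36 (SE), limma adjusted p 0.0319). Nes, the intermediate filament nestin, had 9156 and 13298 in WT versus 6159 and 3374 in KO and did not pass (0.23), and Cdh2, N-cadherin, had 2152 and 5608 in WT versus 1643 and 535 in KO (0.0875). The KO lines were lower throughout, and KO replicate 2 was the lowest in the 4 genes.

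Of 29 proneural and Notch genes tested, the receptor Notch3 alone was called, a share near the 4.34% of all genes. It had 6914 and 5916 in WT versus 3611 and 3031 in KO (log2 change -0.95 ± 0.17 (SE), limma adjusted p 0.0139). Mib1, the ubiquitin ligase that activates Notch ligands, had 8509 and 8513 in WT versus 5772 and 5400.2 in KO (0.0605), and Rbpj, the DNA-binding effector, had 4811 and 4684 in WT versus 6964 and 7333 in KO (0.0875). Neurog2, a proneural factor, was at 0 and 2.2 in WT versus 6.6 and 0 in KO, and the genotypes overlapped.

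Neuronal markers were mixed at this stage, with 1 upregulated and 1 downregulated of 20 tested (median -0.62), against 2.17% of all genes in each direction. Tubb3, the beta-III tubulin of neurons, which ESCs also express, had 386 and 419.5 in WT versus 1168 and 1270.3 in KO (log2 change 1.60 ± 0.27 (SE), limma adjusted p 0.0128). It lies on chromosome 8, where WT replicate 1 was high, and both KO values were still above both WT values. Elavl4 (HuD), an RNA-binding protein of neurons, had 125 and 133 in WT versus 26.5 and 35.9 in KO (log2 change -2.03 ± 0.40 (SE), limma adjusted p 0.0208). At EB8 the order of Tubb3 was the opposite, at 5245 and 5469.6 in WT versus 555 and 272 in KO, while Elavl4 had 1797 and 2062 in WT versus 44.3 and 26.6 in KO.

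In the Hedgehog pathway the ligand Shh had no more than 5.8 normalised counts in any EB5 library, at 0.9 and 5.5 in WT versus 4.7 and 5.8 in KO. Of 18 genes tested, 4 were downregulated and 0 upregulated (median -0.35), against 2.17% of all genes in each direction. Smo, the transmembrane activator of the pathway, had 4664 and 5417 in WT versus 2085 and 1604 in KO (log2 change -1.46 ± 0.21 (SE), limma adjusted p 0.00849), and the values of the genotypes were well apart. Boc, a co-receptor for Shh, had 526 and 869 in WT versus 339 and 142 in KO (log2 change -1.62 ± 0.40 (SE), limma adjusted p 0.0417), and Spon1, the floor plate protein F-spondin, had 1256 and 1257 in WT versus 236 and 91.2 in KO (log2 change -3.09 ± 0.80 (SE), limma adjusted p 0.0492). Foxa2, described above, was the remaining one. The receptor Ptch1, which is also a target of the pathway, had 5080.4 and 3754 in WT versus 6926 and 7065 in KO and did not pass (0.0546). Gli1, the target and effector, had 792 and 92.2 in WT versus 531 and 765 in KO, and the WT lines were further apart than the genotypes.

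Of 36 Wnt pathway genes tested, 5 were downregulated and 0 upregulated (median -0.57), against 2.17% of all genes in each direction. Sfrp5, a secreted Wnt antagonist, had 1729.5 and 3979.6 in WT versus 454 and 129 in KO (log2 change -3.43 ± 0.64 (SE), limma adjusted p 0.0167), and at EB4 it had 13.2 and 5.4 in WT versus 4.7 and 6.4 in KO, and the rise from EB4 passed in both genotypes. Sfrp2, another antagonist, had 996 and 1549.5 in WT versus 466 and 247 in KO (log2 change -1.87 ± 0.44 (SE), limma adjusted p 0.036). Wls, the protein that escorts Wnt ligands to the cell surface, had 5242 and 7658 in WT versus 2435 and 1180.1 in KO (log2 change -1.90 ± 0.43 (SE), limma adjusted p 0.0311). Of the Wnt receptors, Fzd3 had 1007 and 1989.8 in WT versus 539.5 and 391 in KO (log2 change -1.62) and Fzd8 had 1603 and 2213 in WT versus 859.9 and 453 in KO (-1.59). The target gene Axin2 had 539 and 731 in WT versus 861 and 459 in KO and overlapped between genotypes.

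FGF pathway genes changed in both directions, with 4 up and 3 down of 27 tested (median -0.01), against 2.17% of all genes in each direction. Fgf4, the main FGF of ESCs, had 262 and 171 in WT versus 1097 and 4008 in KO (log2 change 3.30 ± 0.83 (SE), limma adjusted p 0.0457), and the KO lines differed from each other by a factor of more than 3. Etv4 (chromosome 11), an ETS factor that ERK signalling induces, had 161 and 199.9 in WT versus 1319 and 869 in KO (log2 change 2.57 ± 0.52 (SE), limma adjusted p 0.023). Its relative Etv5 had 2553 and 1770.2 in WT versus 7098 and 5271 in KO (log2 change 1.52 ± 0.28 (SE), limma adjusted p 0.015). Fgf17 had 14.1 and 9.9 in WT versus 106 and 78.5 in KO (2.85). The 4 upregulated genes lay above WT in both KO lines. The receptor Fgfr2 had 4741 and 5037 in WT versus 2033 and 1104 in KO (-1.71) and the receptor Fgfr4 had 208 and 133 in WT versus 31.3 and 56.2 in KO (-1.96), while Fgf15, a ligand of the neural tube, had 135 and 126 in WT versus 29.4 and 22.3 in KO (-2.30). The feedback inhibitor Spry4 had 312 and 204 in WT versus 1337 and 895 in KO and did not pass (0.0594), nor did Fgfr1, at 8675 and 5082 in WT versus 5579.6 and 4605 in KO (0.381).

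In the Nodal, BMP and TGF-beta list 1 of 27 genes was called, a share near the 4.34% of all genes. It was Inhbb, the beta B subunit of activin and inhibin, upregulated at 18.8 and 30.7 in WT versus 214 and 433 in KO (log2 change 3.61 ± 0.82 (SE), limma adjusted p 0.0334). Nodal itself had 1264 and 1172 in WT versus 1698 and 1672 in KO and its target and inhibitor Lefty1 3584 and 1629.6 in WT versus 7962 and 5426 in KO, without a call (0.427 and 0.278). Among 13 post-implantation epiblast genes, 1 was upregulated and 2 were downregulated, against 2.17% of all genes in each direction. The DNA methyltransferase gene Dnmt3a was upregulated (4315 and 3997 in WT versus 8119 and 7578 in KO, log2 change 0.92) and the zinc finger gene Sall2 downregulated (5048 and 6399 in WT versus 2695 and 1079 in KO, -1.74), beside Sfrp2. Fgf5, a classical gene of this state, had 163 and 266 in WT versus 198 and 98.9 in KO, and Otx2, another, had 1273 and 754 in WT versus 1029 and 536 in KO. The genotypes overlapped in both.

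Of 20 endoderm genes tested, Gc was higher in KO and 3 were lower, against 4.34% of all genes called, with a median of -0.60. DESeq2 called 2 higher and 6 lower, against 812 higher and 907 lower of all 16124 genes. Col4a1 (chromosome 8), a basement membrane collagen, had 6203 and 10331 in WT versus 1104 and 941 in KO (log2 change -2.97 ± 0.33 (SE), limma adjusted p 0.00408), and Lama1, a laminin chain of the same membranes, had 1765 and 3699.6 in WT versus 817 and 434 in KO (log2 change -2.10 ± 0.52 (SE), limma adjusted p 0.0417). Cubn, the endocytic receptor cubilin of visceral endoderm, had 176 and 415 in WT versus 20.9 and 19.4 in KO (log2 change -3.68 ± 0.81 (SE), limma adjusted p 0.0288). For Col4a1 the higher KO value was more than 5 times below the lower WT value. The 4 endoderm markers (Sox17, Gata4, Gata6 and Afp) summed to 839 and 1790 in WT and to 1111 and 770 in KO, which overlapped, and Afp was at 0.9 and 0 in KO.

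Of 25 streak and mesoderm genes tested, 1 was called, a share near the 4.34% of all genes. It was Tcf15, a bHLH factor of paraxial mesoderm that is also expressed in ESCs, upregulated at 196 and 166 in WT versus 815 and 897 in KO (log2 change 2.24 ± 0.46 (SE), limma adjusted p 0.024). The 4 mesoderm markers (T, Mesp1, Kdr and Tbx6) summed to 203 and 480 in WT and to 333 and 135 in KO. Of 14 trophoblast genes tested, Tfap2c alone was called, against 4.34% of all genes. The 3 trophoblast markers (Elf5, Cdx2 and Tpbpa) summed to 22.6 and 62.6 in WT and to 308 and 191 in KO, with Tpbpa at 0 in both KO libraries. Most of the KO sum was Cdx2, at 276 and 174, the caudal factor described above. Elf5 had 5.6 and 12.1 in WT versus 32.2 and 17.5 in KO, and neither was called. Of 23 epithelial genes, 2 were upregulated and 0 downregulated, against 2.17% of all genes in each direction. The 2 were the transcription factor genes Elf3 (902 and 816 in WT versus 3605 and 6490.1 in KO, log2 change 2.49) and Grhl3 (303 and 299 in WT versus 1156 and 902 in KO, 1.76). E-cadherin and Epcam were not called. Cdh1 (E-cadherin) had 20887 and 7277 in WT versus 12739.6 and 16349 in KO, and Epcam had 4712 and 3717 in WT versus 5652 and 5449 in KO. In the neural crest list Pax3 was the single call of 19, a share near the 4.34% of all genes.

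The 7 fibroblast feeder markers (Col1a1, Col1a2, Col3a1, Thy1, Postn, Lum and Dcn) summed to 2234 and 1532 in WT and to 1029 and 979 in KO. None of the 6 markers tested was called, and none of the 7 was at 0 in both libraries of a group. In the wider feeder list, Col5a1, a fibrillar collagen, was the 1 called of 13 tested, against 4.34% of all genes. It was downregulated at 2128 and 1061 in WT versus 536 and 489 in KO (log2 change -1.55 ± 0.29 (SE), limma adjusted p 0.0167). The summed feeder markers were thus lower in KO, but not each marker. Col1a1 overlapped between genotypes, at 963.6 and 351.4 in WT versus 432.3 and 476.1 in KO, as did Col3a1, Postn and Lum. Col1a2, Thy1 and Dcn were lower in both KO lines than in both WT lines. Col4a1, Lama1 and Itga2 were lower in KO too, and the part of feeder RNA in those falls was not tested. The study's methods state that feeders were depleted before spontaneous differentiation, and for the RA protocol they refer elsewhere. Of 19 TFIID entries and 20 p53 and stress genes, none was called. Cdkn1a had 1526 and 1814 in WT versus 2372 and 2631 in KO and Bax 2999.9 and 3102 in WT versus 3474 and 3946 in KO. The 4 neuronal markers (Tubb3, Dcx, Map2 and Stmn2) summed to 2396 and 1632 in WT and to 2010 and 2784 in KO.

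**Figure D4:**
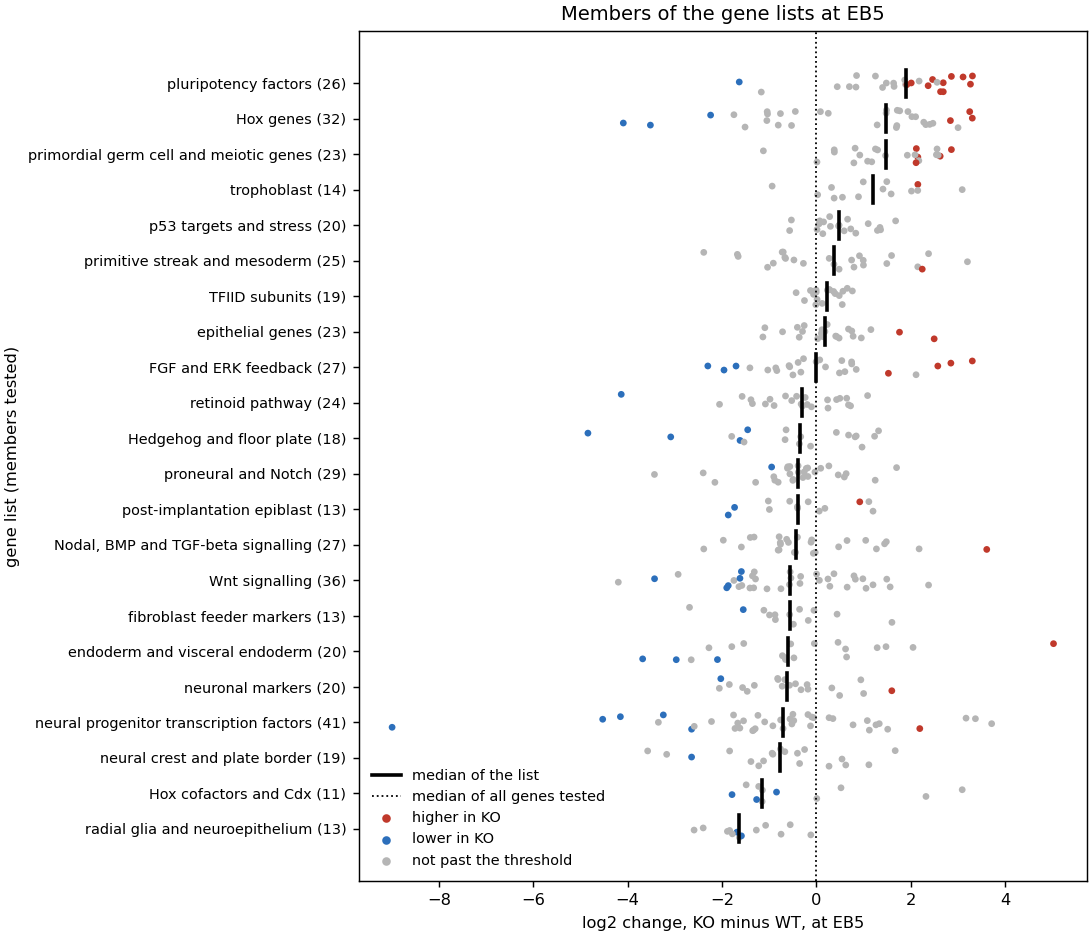
Log2 change at EB5 (horizontal axis, KO minus WT) of the tested members of the 22 gene lists, ordered by median (black bars), with members upregulated in red and downregulated in blue. The pluripotency list has the highest median, at 1.90, and the radial glia list the lowest, at -1.63, and the dotted line is the median of all genes tested, at -0.01.

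To ask whether the difference belonged to the day after RA, the genotypes were also compared at EB4 and EB8, in other libraries. Libraries of the same genotype and replicate number deviated alike at these stages, as lines shared between stages would: the differences between replicates 1 and 2 correlated across 16124 genes at 0.605 (EB4 and EB5) and 0.570 (EB5 and EB8) in WT and at 0.422 and 0.233 in KO. At EB4 986 genes passed (6.12%) and at EB8 3697 (22.9%). Of the 350 genes upregulated at EB5, 208 (59.4%, or 47.0% of the 443 upregulated at EB4) were also upregulated at EB4 and 285 (81.4%, or 17.0% of 1677) at EB8. Of the 350 downregulated genes, 166 (47.4%, or 30.6% of 543) were also downregulated at EB4 and 266 (76.0%, or 13.2% of 2020) at EB8. At all 3 stages 177 genes were upregulated and 135 downregulated, whereas 30 and 53 were called at EB5 only. Differences between the lines cannot be told apart from the loss of Taf4a by this recurrence.

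Esrrb, Tfcp2l1 and Smo belong to the genes called at all 3 stages, with log2 changes at EB4 of 2.22, 2.12 and -1.56 (limma adjusted p 0.0073, 0.00726 and 0.00465). Pax6, Dbx1, Foxb1, Pax3, Hoxc4 and Hoxd3 were called at EB5 and EB8 but not at EB4, where Pax6 had 234 and 131 in WT versus 123 and 131 in KO and Pax3 11.0 and 20.4 in WT versus 7.0 and 10.2 in KO. Wls and Sfrp5 were called at EB5 and not at EB4 or EB8. At EB8 Sfrp5 was at 148 and 91.1 in WT versus 92.8 and 99.1 in KO.

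The change of the genotype difference between stages was tested as an interaction. Between EB4 and EB5 0 genes passed (limma, 478 at an unadjusted p below 0.05), 0 by edgeR and 4 by DESeq2, so that a call at EB5 and none at EB4 does not show that the genotype effect differed. Between EB5 and EB8 the difference changed in 126 genes (0.781%), upwards in 16 and downwards in 110, and in 43, 19, 42 and 52 genes without KO replicate 1, KO replicate 2, WT replicate 1 and WT replicate 2. Among the genes called at EB5 were Nr5a2, whose excess in KO grew by 2.00 on the log2 scale (limma adjusted p 0.0265), and Hoxb9 and Tubb3, which were higher in KO at EB5 and lower at EB8, and Elavl4, which was lower at both and more so at EB8.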

How the data were processed

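As the labels and the study's methods state, poly-A RNA was sequenced, and the authors aligned the reads with TopHat2 2.0.10 to mouse build mm9 (NCBI37), counted them with HTSeq 0.5.4p3 and normalised the counts with DESeq2 1.0.19. Neither the annotation used nor whether counting used strand is given in the sources used here. The table that the authors deposited holds a signal for each of 27807 genes, namely its count over the size factor of the library. Each library's values were multiples of 1 step (100% whole within 0.01 of a read), so reads per library were recovered, and the depth behind each value is that of the report. A floor of 3 reads covers counting error only, since PCR copies are not independent molecules.

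Gene positions came from GENCODE M1 on NCBI37 (27603 identifiers found, 204 not). Genes whose mean over all 16 libraries was 10 normalised counts or more were tested with limma 3.58.1 (R 4.3.3) on log2(value + 1), which understates the change of low genes. The model had 1 mean for each genotype and stage, 8 in all, with 8 residual and 4.27 prior degrees of freedom, eBayes with trend and Benjamini-Hochberg adjustment over all 16124 genes at a threshold of 0.05. DESeq2 1.42.0 and edgeR 4.0.16 served as alternatives on these reads. All 3 tests were also run on simulated counts that held no line effects shared between stages, and that outcome is not reported here. Other steps used Python 3.11.15. P-values rest on the spread between the libraries of a group, pooled over the 8 groups of genotype and stage, not on the EB5 lines alone. Libraries of the same genotype and replicate number deviated alike between EB4, EB5 and EB8, so the 8 residual degrees of freedom are not all independent. In undifferentiated ESCs the chromosome shifts recurred in KO, at 0.24 for chromosome 11 in replicate 1 and 0.35 for chromosome X in replicate 2. The WT shift did not recur there, with chromosome 8 at -0.12 in replicate 1.

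The comparison, the gene lists and the rule for named genes were chosen with earlier results of these data known, so a list is no independent evidence of a direction. Named genes are Taf4a, Taf4b, the 12 largest rises and falls past the threshold with groups that do not overlap, list members past the threshold and up to 6 further members of a list by level. Axin2, Bax, Cdkn1a, Cdx2, Dhrs3, En2, Fgf5, Gli1, Klf4, Neurog2, Olig2, Rarb, Shh, Spry4 and the miR-290 cluster fall outside it and were chosen after their values were seen. Some genes that the rule covers are not reported here. Replicate numbers occur in both genotypes, but the differences between replicates 1 and 2 correlated at -0.209 between WT and KO at EB5, over 16124 genes, so the numbers do not pair the lines. Other alternatives were a replicate block, pseudocounts of 0.1 and 5, other filters and scalings, fewer libraries, and no genes of chromosomes X, Y, 8 and 11.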

Additional observations from a re-analysis of the deposited data

Results flagged for a closer look

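The genotype difference (log2, KO minus WT) changed between EB5 and EB8, by an interaction test in limma adjusted over all 16124 genes, in members of several gene lists. Those reported here follow, and 4 of them were called at EB5. Nr5a2 went from 2.01 to 4.01, a change of 2.00 (adjusted p 0.0265), and Nodal, not called at EB5, changed by 3.74 (0.00488). Hoxb9 went from 3.25 to -3.04, a change of -6.29 (0.0126), with 5724 and 7120.3 in WT versus 997 and 599.7 in KO at EB8, and its neighbour Hoxb8 changed by -5.95 (0.0399). Tubb3 went from 1.60 to -3.78, a change of -5.38 (8.54e-05), and Elavl4 from -2.03 to -5.77, a change of -3.74 (0.0137).

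Of the 20 neuronal markers tested, 6 more changed in the same direction, with Dcx, a microtubule protein of migrating neurons, at -6.62 (adjusted p 0.0287), Elavl3 at -5.06 (0.0171), Snap25 at -4.65 (0.0171), Gad1 at -4.18 (0.0258), Stmn3 at -3.89 (0.0379) and Map2 at -3.15 (0.0213). At EB8 Dcx was in WT at 4946 and 6972 normalised counts and in KO at 61.2 and 88.4. Of proneural and Notch genes, Neurog2 changed by -7.89 (0.0258), Neurod1 by -4.48 (0.0309), Nrarp by -3.50 (0.0201) and the ligand Dll1 by -2.96 (0.0286). Of progenitor factors, Msx3 changed by -5.98 (0.0252), Pou3f4 by -5.25 (0.0486), Pou3f3 by -4.69 (0.0121) and Sox3 by -3.28 (0.0373).

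In the Hedgehog list Shh changed by -5.52 (adjusted p 0.0265), with 104 and 176 in WT versus 4.2 and 4.3 in KO at EB8, and its receptor Ptch1 by -1.60 (0.016). Of other lists, the values were Fgfbp3 at -4.01 (0.0265) and Id4 at -3.50 (0.0126). The calls between EB5 and EB8 over all genes numbered 126, and 19 to 52 without 1 library, so each of these rests on few lines.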

How the results depend on the processing

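The 700 calls at EB5 (350 higher, 350 lower) became 1719 with DESeq2 (812 and 907), 447 with no filter (208 lower), 72 with only the stages compared (50 and 22) and 46 at a threshold of 0.01 (31 and 15). Leaving out 1 library gave 0 to 525 calls, 0 to 216 higher and 0 to 309 lower, and the 0 came without KO replicate 2. The cause of these moves was not tested. The replicate block gave 983 calls, and 1000 with the KO numbers exchanged, an alternative added after the data were seen. All 86 named genes kept their side of the threshold under both. The difference between EB5 and EB4, with 0 calls, had 4 with DESeq2 and 3 with a pseudocount of 5, and 0 in each fit that left out 1 library. That between EB8 and EB5, with 126 calls, had 488 with DESeq2, 245 with a correlation within genotype and replicate number, 225 with a pseudocount of 5, 227 with a replicate block within genotype (added later), 16 at a threshold of 0.01 and 19 to 52 without 1 library. The 64 list members called became 131 with DESeq2, 19 with only the stages compared, 9 at a threshold of 0.01 and 0 to 57 without 1 library. Of the 86 named genes, 85 kept their side of the threshold with DESeq2, 78 with edgeR, 66 with a pseudocount of 0.1, 60 with no filter, 27 with only the stages compared and 2 to 62 without 1 library, the 2 being the uncalled Taf4a and Taf4b. Taf4b, not called, had a log2 change of -0.0033 without WT replicate 1, and up to 0.47 without another library. The 2 lines of a genotype differed by more than counting error, so the number of lines, and for genes near the floor the depth, limits what could be detected.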
